A study of Mus musculus with 6 samples.

Results

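The genes described here encode the receptors, bridging proteins and kinase with which the retinal pigment epithelium (RPE) takes up shed photoreceptor outer segments. They are the receptor tyrosine kinases Mertk, Axl and Tyro3 (the TAM receptors), their ligands Gas6 and Pros1, the bridging protein Mfge8, the integrin subunits Itgav and Itgb5, the scavenger receptor Cd36 and focal adhesion kinase, Ptk2. They were chosen by name, and all 10 were found among the 33924 gene symbols of the deposited table. RNA came from RPE/choroid, a scraping of the mouse eyecup that holds the pigmented epithelium and the blood vessel layer under it, from C57BL/6J mice labelled male. There were 3 libraries of young mice, with an age of 1 to 2 months in the labels, and 3 of aged mice, with 20 to 24 months in the titles and 22 to 24 months in the time label. In its methods the study used male and female animals and gave the young mice a higher age, and the eyes of a mouse made 1 sample. Ribosomal RNA was removed and poly(A) tails were not selected for.

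The table holds 1 mean for each gene over the 6 libraries and the authors' own comparison of the ages, which was not used. No column gives a value for a library. The levels below are therefore those of young and aged tissue pooled, with no error or test, and whether any of these genes differs with age was not analysed here. How deeply each library was sequenced is not in the table either. In a bulk sample, fewer cells of a type and less RNA per cell cannot be told apart.

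Photoreceptors shed the tips of their outer segments every day, and the RPE cell opposite binds, engulfs and digests them. Integrin alpha-v beta-5, with Mfge8 as a bridge to phosphatidylserine on the shed membrane, serves the binding step and signals through focal adhesion kinase. Mertk, with Gas6 or protein S (Pros1) as a bridge, drives engulfment, and the loss of Mertk causes retinal degeneration. The same receptors and bridges also clear dying cells in macrophages and other tissues.

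Sequence is shown first for the bridge to the integrin, since the tripeptide RGD is what alpha-v integrins recognise. The predicted Mfge8 protein of 463 residues held RGD at 1 place. Its codons lie in exon 3 of 10 of the transcript with the longest coding sequence, at chr7:79145299-79145325 (GRCm38, minus strand). They are in capitals here, between 9 coding bases on either side.

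Mfge8: gacacacagCGTGGGGACatcttcacc

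Among the other members, RGD occurred at 1 place in Axl and in none of the remaining 8 predicted proteins. A tripeptide match is a description of the letters and does not show a binding site.

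Because the TAM receptors are related, it was asked whether their reads could be exchanged. The predicted proteins had 994 residues for Mertk, 888 for Axl and 880 for Tyro3. Identity over the aligned residues was 45.7% for Mertk and Axl, 43.7% for Mertk and Tyro3 and 44.5% for Axl and Tyro3. In each of the 3 pairs the longest run of identical coding bases was 14 bases. The runs that Tyro3 shares with the others are shown to make this limit visible, with the shared bases in capitals and 4 further coding bases on each side. Mertk and Tyro3 share theirs at chr2:128794450-128794471 and chr2:119813171-119813192 (both plus strand), in exon 18 of each gene.

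Mertk, against Tyro3: tggcGTGACCATGTGGGAaata

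Tyro3, against Mertk: cgggGTGACCATGTGGGAgatc

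Axl and Tyro3 share theirs in exon 9 of each gene, at chr7:25773371-25773392 (minus strand) and chr2:119809495-119809516 (plus strand).

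Axl, against Tyro3: tgggGATGGGCCCTGGAGcctt

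Tyro3, against Axl: tggtGATGGGCCCTGGAGtcag

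No 31-base word was thus common to a pair of receptors. The ligands were no closer to each other. Gas6 (674 residues) and Pros1 (675 residues) were identical at 42.0% of aligned residues, with a longest shared coding run of 12 bases.

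Sharing with genes outside the group differed between members. Of all 31-base words in the longest transcript, 100% occurred in no other annotated gene for Mertk, Axl, Tyro3, Pros1, Mfge8 and Cd36. The share was 99.7% for Gas6 and close to that for Itgav, at 99.97%. It was 95.9% for Ptk2 and 91.3% for Itgb5, whose 283 shared words all lie in the predicted gene Gm38317. The 191 shared words of Ptk2 were spread over 1241 other genes, with the most, 78, in Gm48632. A division of reads between genes could touch these 4 members, of which Gas6 shared 7 words and Itgav 2. The words of Gas6 were shared with Tmem255b and those of Itgav with Gm18815. Under these symbols, Tmem255b, Gm18815, Gm38317 and Gm48632 had no value among the authors' genes. Exons on the opposite strand overlap Gas6 (Tmem255b) and Itgav (Gm13684, with an authors' mean of 43.7 normalized counts), and a stranded kit was used.

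All members were expressed. The authors' means ran from 961 normalized counts for Tyro3 to 13265 for Itgav, a ratio of 13.8, with a median of 4204. Together they made up 0.266% of the summed means of all genes. By this mean, 8 of the 10 lay at or above the 90th percentile of the 17975 genes with a mean of at least 10, which are termed expressed here. Longer transcripts give more fragments, so genes were compared per length, as normalized counts per kb of the longest annotated transcript. The methods, however, derive the normalized counts from TPM, a unit already divided by transcript length, and do not say whether the means still scale with length. If they do not, the per-length levels were divided by length a second time, and the means themselves are the levels to compare. Both are therefore given for each member, and the percentile beside them is that of the level per length. Such a level could be given for 15927 of the expressed genes (88.6%), whose symbol matched a gene model. The median expressed gene had 126 normalized counts per kb, and all 10 members lay above it. By the means, too, all 10 lay above the median expressed gene, which had 354 normalized counts.

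**Figure D1:**
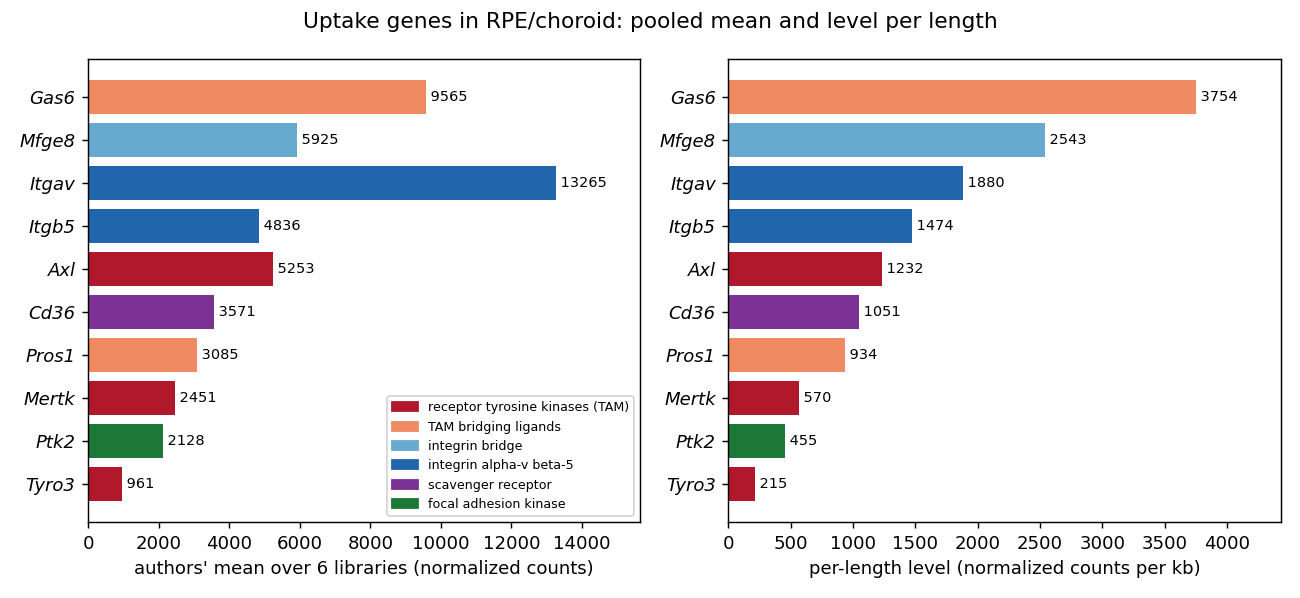
Horizontal bars give the authors' mean over the 6 libraries in normalized counts (left) and the level in normalized counts per kb of the longest transcript (right) for each uptake gene, ordered by the right panel and coloured by role; no error can be shown because the table holds 1 pooled value a gene. Itgav has the highest mean (13265), whereas Gas6 has the highest level per kb (3754), and Tyro3 is lowest in both.

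The ligands stood far apart, at the first and the seventh place. Gas6, the vitamin K-dependent ligand of all the TAM receptors, had an authors' mean of 9565 normalized counts and the highest level per length of the group, 3754 normalized counts per kb, at percentile 98.9. The gene lies on chromosome 8 at 13465374 to 13494490 and has 15 exons. Pros1 encodes protein S, which also acts in the blood as an anticoagulant cofactor and binds Mertk and Tyro3. Its mean was 3085 normalized counts and its level 934 normalized counts per kb, at percentile 93.0 (chromosome 16, 62854307 to 62929346). Gas6 thus stood at 4.02 times the level of Pros1 per length and held 80.1% of the sum of the pair. This share was 51.2% when the median transcript length was used, since the median annotated transcript of Pros1 has 863 bases and its longest 3303.

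The receptors were lower than Gas6 by the longest transcript and by the means, and their levels per length spanned 5.72 times. By the median transcript length Axl, at 7618 normalized counts per kb, stood above Gas6. Axl, which binds Gas6 and not protein S, was the most abundant, with an authors' mean of 5253 normalized counts and 1232 normalized counts per kb, at percentile 95.2 (chromosome 7, 25757273 to 25788705, 20 exons). Mertk, the receptor whose loss stops outer segment uptake, had a mean of 2451 normalized counts and 570 normalized counts per kb, at percentile 86.9 (chromosome 2, 128698956 to 128802894, 19 exons). Tyro3, on the same chromosome at 119797733 to 119818104, had a mean of 961 normalized counts and 215 normalized counts per kb, at percentile 64.7.

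Per length, Axl stood at 2.16 times Mertk, and Mertk at 2.65 times Tyro3. Of the summed receptor level, 61.1% was Axl, 28.2% was Mertk and 10.7% was Tyro3. The longest transcripts of the receptors are nearly equal in length, from 4265 to 4460 bases, so the shares of the uncorrected means were close to these, with 60.6% for Axl and 28.3% for Mertk. With the median transcript length, however, the share of Mertk was 7.13%, Axl stood at 10.95 times Mertk, and Mertk at 0.480 times Tyro3. The 2 ligands together had 2.32 times the level of the 3 receptors per length and 1.46 times by the means. By the median transcript length the direction turned, with a ratio of 0.751.

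Mfge8 and its integrin receptor followed Gas6 in the order. Mfge8, the secreted milk fat globule protein that carries RGD, had an authors' mean of 5925 normalized counts and 2543 normalized counts per kb, at percentile 98.1 (chromosome 7, 79133768 to 79149060). The longest Mfge8 transcript, which sets this level, has 6 exons. It is not the transcript of 10 exons in which the RGD codons were placed. Itgav, the alpha-v subunit, had the highest mean, 13265 normalized counts, the 99th in the whole table. Its longest transcript, of 7054 bases, is also the longest of the group, and its level was 1880.5 normalized counts per kb, at percentile 97.2 (chromosome 2, 83724397 to 83806916, 30 exons). Itgb5, the beta-5 subunit, had a mean of 4836 normalized counts and 1474 normalized counts per kb, at percentile 96.2 (chromosome 16, 33829665 to 33949338).

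The subunits stood at a ratio of 1.28 per length, against 2.74 by the means and 2.14 by the coding length. By the exon union the direction turned, and the ratio of Itgav to Itgb5 was 0.907. Mfge8 stood at 1.35 times Itgav per length, but at 0.447 times by the means and 0.570 times by the median transcript length. It stood at 1.73 times Itgb5 per length and 1.23 times by the means, against 0.893 times by the median transcript length and 0.927 times by the exon union. Whether Mfge8 or a subunit was higher thus rested on the length rule.

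Alpha-v pairs with several beta subunits, and Itgb5 was not the highest of them. Itgb8, whose pair with alpha-v activates latent TGF-beta, had 3873 normalized counts per kb. Itgb1, which also pairs with many other alpha subunits, had 2736 normalized counts per kb. Itgb6 and Itgb3 were low, with 78.9 and 69.6 normalized counts per kb, both under the median expressed gene; their means of 403 for Itgb3 and 379 for Itgb6 lay above its mean. Of the summed level of the 5 partners, 47.1% was Itgb8, 33.2% Itgb1 and 17.9% Itgb5. By the means, of 32549 normalized counts for Itgb8 and 10436 for Itgb1, these shares were 66.97%, 21.5% and 9.95%. Itgb8 stood above Itgb5 under each length rule, whereas Itgb1 stood at 1.86 times Itgb5 per length and at 0.753 times by the median transcript length. Itgb5 stood at 21.2 times Itgb3, the beta-3 subunit with which alpha-v forms the vitronectin receptor of many phagocytes, at 12.0 times by the means and at 96.7 times by the median transcript length. The share of Itgb5 rested on the length rule and was 9.49% by coding length and 33.9% by median transcript length.

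Cd36 and Ptk2 act on either side of these receptors. Cd36, a scavenger receptor for oxidised lipids and long-chain fatty acids that acts in ingestion, had an authors' mean of 3571 normalized counts and 1051 normalized counts per kb, at percentile 94.0 (chromosome 5, 17781690 to 17888801). It stood at 1.84 times Mertk per length, at 1.46 times by the means and at 3.07 times by the coding length. Against its relative Scarb1 it stood at 2.37 times per length and 2.61 times by the means, but at 6.17 times by the exon union and 0.797 times by the median transcript length. Ptk2, a kinase activated by integrin binding, had a mean of 2128 normalized counts and 455 normalized counts per kb, at percentile 83.0 (chromosome 15, 73205102 to 73423280, 30 exons). Its close relative Ptk2b had 100.5 normalized counts per kb, so that Ptk2 stood at 4.52 times Ptk2b, at 5.25 times by the means and at 33.1 times by the median transcript length.

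**Figure D2:**
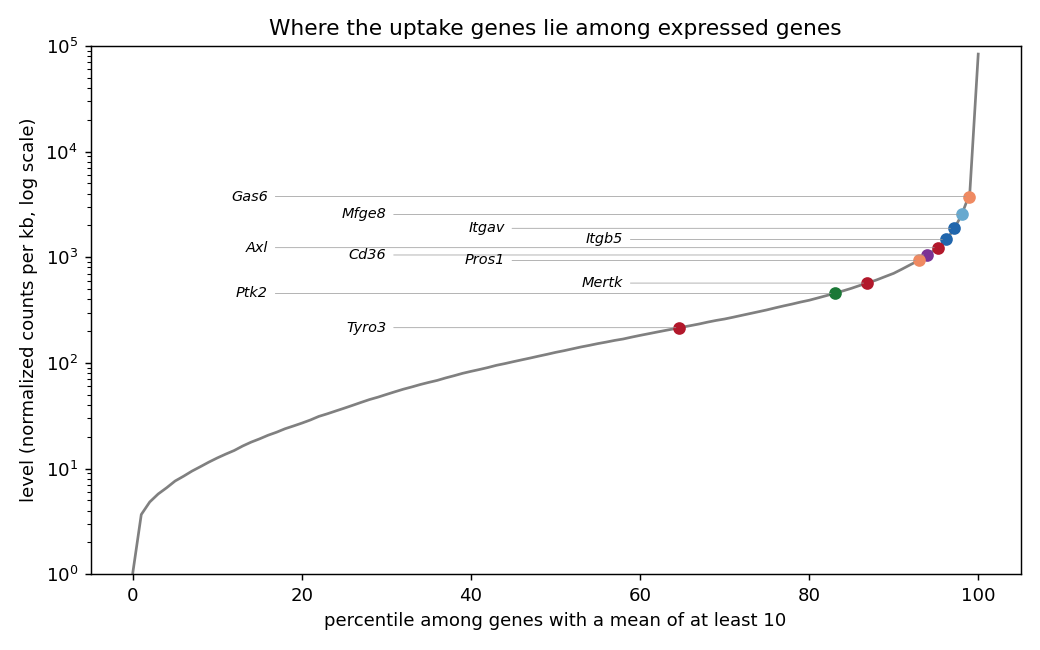
The grey line gives the level in normalized counts per kb (log scale) against the percentile among expressed genes with a gene model, and dots mark the uptake genes in the colours of their roles. Of the 10 genes, 7 lie at the 90th percentile or above per length, and Mertk (86.9), Ptk2 (83.0) and Tyro3 (64.7) lie lower. By the authors' mean, which is not drawn, 8 lie there. On that scale Mertk is at percentile 90.85, Ptk2 at 88.8 and Tyro3 at 73.2.

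In order of level per length, the members ran Gas6, Mfge8, Itgav, Itgb5, Axl, Cd36, Pros1, Mertk, Ptk2 and Tyro3. Neighbours in this order stood at ratios of 1.12 to 2.11. Whether any of them differs beyond the spread over mice cannot be said from a pooled mean. Of the 45 pairs of members, 43 kept their order when the length of the exon union was used and also by coding length, 42 kept it with no length correction and 31 by median transcript length. Gas6 was first under the longest transcript, the exon union and the coding length, Itgav was first under the other rules, and Tyro3 was last under all but the median transcript length.

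**Figure D3:**
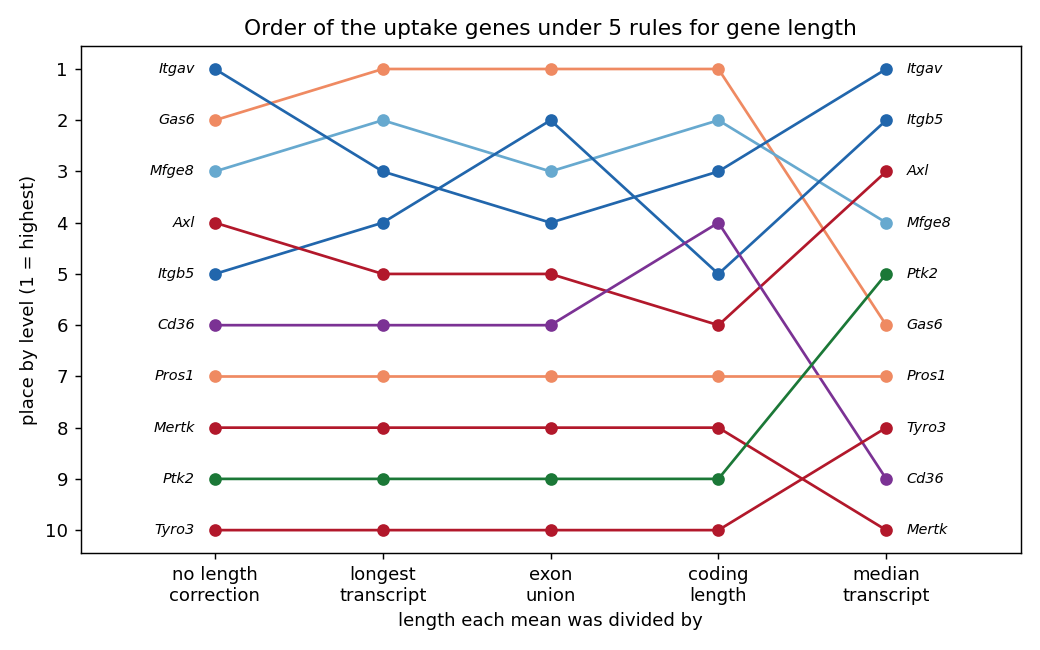
The place of each uptake gene by level (1 is the highest) is plotted under 5 rules for the length that its mean was divided by, and lines join the places of a gene. The order is close under the first 4 rules and changes most under the median transcript length, where Mertk falls from place 8 to place 10 and Ptk2 moves from 9 to 5.

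The group was set beside other genes of the uptake pathway, from lists chosen by name. Of 12 other receptors for dying cells or scavenged lipids, 4 lay above the median expressed gene per length and 6 by the means, and 8 lay below the lowest member, Tyro3, on either scale. The highest of them were Lrp1, a large endocytic receptor, with 2466 normalized counts per kb, Colec12 with 948 and Stab1 with 483. The mean of Lrp1, 36712 normalized counts, was higher than that of any member. Havcr1 and Olr1 had authors' means of 0.830 and 1.72 normalized counts. Timd4, a phosphatidylserine receptor of resident macrophages, had a mean of 11.1 normalized counts.

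Other bridges and ligands had a median of 1080 normalized counts per kb, beside 1141 for the members, whereas the medians of the means were 1883 and 4204 normalized counts. All 7 listed genes lay above the median expressed gene. Thbs1, a matrix protein that binds Cd36 and alpha-v integrins, had 4334 normalized counts per kb, more than any member. The complement component C1qa had 3633 and Lgals3, a galectin that binds Mertk, had 2058 normalized counts per kb. Tulp1 and Tub, which bind Mertk as well, had 687 and 152 normalized counts per kb.

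Signalling genes beneath the receptors had lower levels, with a median of 310 normalized counts per kb over 18 genes, of which 14 lay above the median expressed gene and 7 below Tyro3. By the means the median was 914 normalized counts, with 17 above the median expressed gene and 10 below Tyro3. The highest per length were Pik3r1, a regulatory subunit of phosphoinositide 3-kinase, with 857 normalized counts per kb, the adaptor Crk with 755 and the GTPase Rac1 with 685. By the means the highest were Pik3r1 with 6097 normalized counts, Crk with 3241 and Dock1 with 3113, ahead of Rac1 with 2848. Src, the kinase linked to Ptk2 and Mertk in this pathway, had 347 normalized counts per kb. Adam17, the protease that sheds the Mertk ectodomain, had 416.

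Genes for phagosome movement and digestion had a median of 916 normalized counts per kb, and all 13 lay above the median expressed gene. Ctsd, the aspartic protease that degrades outer segment protein, reached 36749 normalized counts per kb. It stood at 14.5 times Mfge8, and at 5.94 times by the median transcript length and 26.3 times by the exon union. Lamp1 had 5435 and Anxa2 had 3025 normalized counts per kb. Myo7a, the motor that carries phagosomes in the RPE, had 597, beside 570 for Mertk, and a mean of 4479 normalized counts, beside 2451.

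**Figure D4:**
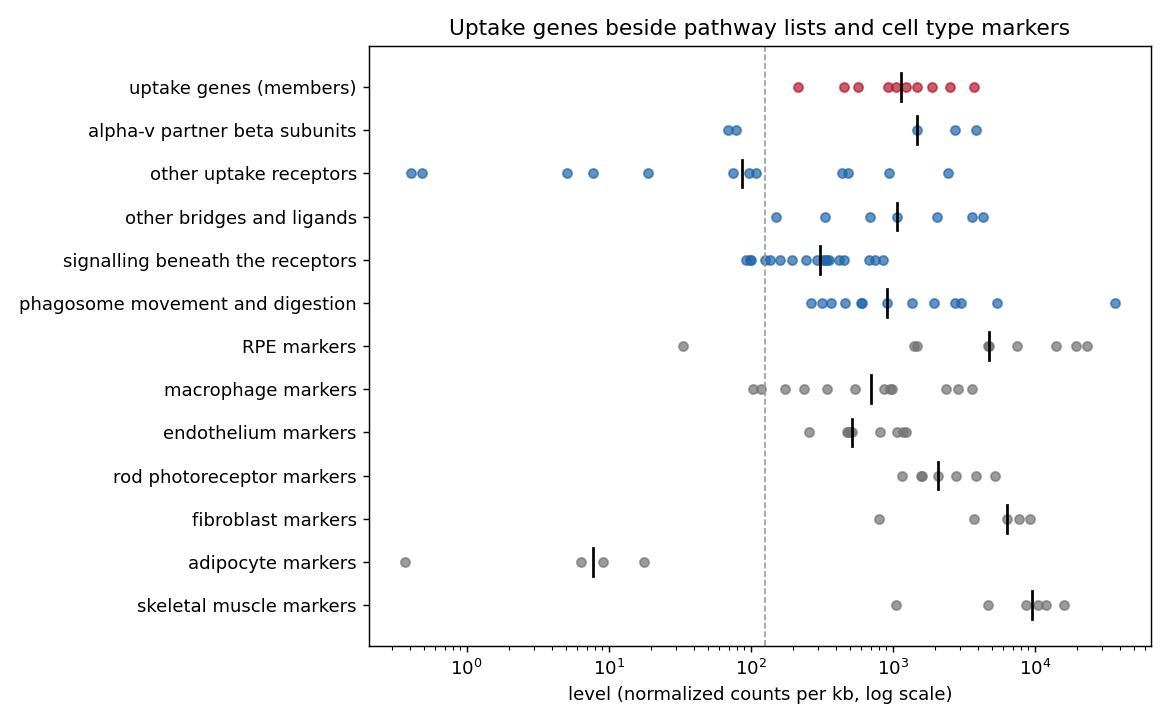
Each dot is a gene at its level in normalized counts per kb (log scale), with the uptake genes in red, pathway lists in blue and cell type marker lists in grey; short black lines are list medians and the dashed line is the median expressed gene (126). The uptake genes lie between 215 and 3754, and the adipocyte markers, which reach 17.6, all lie below them.

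The tissue label was checked against marker genes. Of 9 RPE markers, 8 lay above the median expressed gene on either scale, and 6 lay above every member per length and 4 by the means. Rpe65, the retinoid isomerase, had 23481 normalized counts per kb, 41.2 times Mertk (17.9 times by the means), Rgr had 19598 and Rlbp1 had 14034. Best1, the RPE chloride channel, was low, with 33.6 normalized counts per kb. The RPE list had a median of 4799 normalized counts per kb and of 10046 normalized counts by the means. Markers of other cells were present too. On either scale the medians of the muscle and fibroblast lists lay above the RPE median, and that of the rod list lay below it. Rod photoreceptor markers had a median of 2076 normalized counts per kb over 7 genes, led by Gnat1 with 5239, Prph2 with 3850 and Sag with 2785. By the means of these 7 genes Sag led with 13165 normalized counts, ahead of Gnat1 with 12334 and Prph2 with 10261. Skeletal muscle markers had a median of 9597, led by Mylpf with 16179, Acta1 with 12062 and Tnnt3 with 10579. By the means they were led by Myh4 with 51830 normalized counts, Acta1 with 17441 and Ckm with 12939. Fibroblast markers had a median of 6392, led by Dcn with 9256, Col1a1 with 7732 and Col3a1 with 6392. By the means Col1a1 led with 45848 normalized counts, ahead of Dcn with 43430 and Col3a1 with 35566. By the means the medians were 7322 normalized counts for rod, 12666 for muscle and 35566 for fibroblast markers. RNA of these cell types was thus in the pooled mean, and their part in the level of a member was not tested.

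Macrophages and endothelial cells also carry several of these receptors. The 12 macrophage markers had a median of 702 normalized counts per kb, from 103 for Cd14 to 3633 for C1qa, with Tyrobp at 2898 and C1qb at 2380. By the means they were led by Csf1r with 4063 normalized counts, C1qa with 3778.5 and Adgre1 with 3121. C1qb had 2589 and Tyrobp 1730. The 9 endothelium markers had a median of 514, led by Cldn5 with 1249, Plvap with 1187 and Kdr with 1077 normalized counts per kb. By the means they were led by Kdr with 6377 normalized counts, Vwf with 4290 and Emcn with 2866, and Cldn5 had 1769. Per length, Mertk at 570 lay between the macrophage and endothelium medians, and Axl at 1232 and Cd36 at 1051 lay above both. Single markers lay higher, with C1qa, Tyrobp, C1qb and Cldn5 above Axl and Cd36, and Plvap and Kdr above Cd36. By the means the medians were 1477 and 2323 normalized counts, and Mertk, Axl and Cd36 lay above both. Kdr lay above Axl on this scale, and Vwf, Csf1r and C1qa lay above Cd36. Adipocyte markers were low, with 17.6 normalized counts per kb for Adipoq, 9.14 for Cidec and 6.42 for Plin1, all under the median expressed gene. Cd36 stood at 59.6 times Adipoq per length and 157 times by the means. The part of macrophages, endothelial cells and adipocytes in the level of a receptor was not tested either.

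Position and promoter were not used in the choice by name. Itgav, Tyro3 and Mertk lie on chromosome 2, Axl and Mfge8 on chromosome 7, and Pros1 and Itgb5 on chromosome 16, while Gas6, Cd36 and Ptk2 each lie on a chromosome with no other member. RefSeq promoter windows of GRCm38.p6, each spanning a transcription start, were matched for 9 members; Ptk2 had no entry. All 9 held the GC box GGGCGG on either strand, which 35.7% of the 32851 windows held. The E-box CACGTG, present in 7.15% of windows, and TATAAA, present in 13.6%, were found in 0 of the 9. A match describes the letters in these windows and is not a site.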

How the data were processed

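Total RNA was sequenced from 3 young and 3 aged RPE/choroid samples. The authors trimmed reads (BBDuk), mapped them to Ensembl transcripts of GRCm38 (STAR), estimated TPM values (Sailfish), turned these into counts normalized to the total and tested age with DESeq2. Each baseMean deposited by the authors is a normalized signal, the mean normalized count of a gene over the 6 libraries. The other columns hold the authors' own comparison of the ages (fold change, standard error, statistic, p-value and adjusted p) and were not used.

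Means were divided by the longest transcript length in GENCODE M21 (GRCm38, another release than the authors used), with Python 3.11.15 and pandas 2.3.3. Genes with a mean of at least 10 were termed expressed. A symbol with several models took the protein-coding, then the longest. Bai1, Emr1 and 1700021K19Rik were read as Adgrb1, Adgre1 and Rubcn. Words of 31 bases were compared on both strands with the transcripts of all other genes. Proteins were translated from the longest coding sequences and aligned globally (biopython 1.88, BLOSUM62). Scripts were tested on simulated data. Members and lists were chosen with earlier results of these data known. All members are named, with the 3 highest genes of each list per length. For the rod, muscle, fibroblast, macrophage, endothelium and signalling lists, the 3 highest by the means are named too. Other genes were named for their role in the pathway or a low value after their values were seen. Other length rules and comparison sets were tried. One gene of the photoreceptor list is not reported here.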

Additional observations from a re-analysis of the deposited data

How the results depend on the processing

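Levels are limited by the length they were divided by, since the transcripts behind each mean are not in the table. The share of Mertk among the TAM receptors was 28.2% with the longest transcript, 28.3% with no length correction, 26.0% by coding length, 32.0% by exon union and 7.13% by median transcript length. The share of Gas6 in the sum of Gas6 and Pros1 was 80.1%, and under the same alternatives, in that order, 75.6%, 75.6%, 83.3% and 51.2%. The share of Itgb5 among the partners of alpha-v was 17.9%, against 9.95%, 9.49%, 19.5% and 33.9%. Of 30 levels of members recomputed with another length, 14 stayed within 1.5 times and 16 did not. All 10 members lay above the median gene under each comparison set tried: expressed genes, all genes above 0, all genes of the table, protein-coding genes, and expressed genes with no length correction. Among protein-coding expressed genes their percentiles ran from 61.7 to 99.0. No paired analysis was possible because no column used here gives a value for a library, and for the same reason no replicate could be left out.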
